A study of Mus musculus with 33 samples.

Results

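The genes described here are 10 genes of neutrophils and of the innate alarm response: S100a8, S100a9, Cd14, Lcn2, Ngp, Camp, Ltf, Il1b, Il4ra and Mpo. They were chosen by name, as every probe set of the Affymetrix MGU74Av2 array annotated to one of these symbols, which gave 13 of 12488 probe sets. All 10 genes had a probe set, and Lcn2, Il4ra and Mpo had 2 each. Whole lungs and whole livers of mice were measured, 33 arrays in 11 groups of 3 samples, without isolation of any cell type. The labels spell the strain as C57/BL for all livers, all lungs of 10% oxygen and the first 24 h lung of room air, as BL/57 for the other newborn lungs of room air and as C57/Black for the F21 lungs of room air, with no entry for the second of these, and the study's methods name C57B/6J dams. Lungs of 10% oxygen were taken at fetal day 21 (F21), after the dam had spent 12 h in 10% oxygen, and at 2 h and 6 h after birth into 10% oxygen. Lungs of room air were taken at F21 and 2, 6, 12 and 24 h after birth. Livers came from room air only, at F21, 2 h and 6 h. Neither an agent other than oxygen nor an altered allele is named for any group. The labels do not say which samples came from littermates, or whether a lung and a liver came from 1 animal, so the p-values below measure the spread between these samples and the tests between organs treat all arrays as independent.

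Neutrophils fill their granules stage by stage as they mature, in bone marrow and, before birth, in the fetal liver, which then forms blood. Mpo, the peroxidase of the primary granules, is made first, in early precursors. Ltf (lactoferrin), Camp (the cathelicidin antimicrobial peptide), Ngp (a neutrophil granule protein) and Lcn2 (lipocalin 2, which binds bacterial iron carriers) belong to later granules. S100a8 and S100a9 form calprotectin, a calcium-binding protein that fills the cytosol of neutrophils and monocytes and acts as an alarm signal outside the cell. Cd14 is a co-receptor for bacterial lipopolysaccharide on monocytes and macrophages. Il1b is an inflammatory cytokine, and Il4ra is the receptor chain shared by the cytokines interleukin-4 and interleukin-13. Lcn2 and the S100 pair can also be made by epithelial cells under inflammatory stimuli. In whole tissue, fewer cells of a type and less RNA per cell cannot be told apart.

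S100a8 and S100a9 lie on mouse chromosome 3, and Ngp, Camp and Ltf on chromosome 9. The promoters of S100a8 and S100a9, whose signals moved together in lung, and of Ngp and Camp, the granule genes with a high liver signal and a low lung signal, are shown as the 250 bases before the annotated start (RefSeq, build GRCm38.p6, 5′ to 3′ in the direction of the gene). Capitals mark matches on either strand to the C/EBP motif TTNNGNAA, the PU.1 motif GAGGAA and the TATA box TATAAA.
S100a8, chr3:90668821-90669070, plus strand: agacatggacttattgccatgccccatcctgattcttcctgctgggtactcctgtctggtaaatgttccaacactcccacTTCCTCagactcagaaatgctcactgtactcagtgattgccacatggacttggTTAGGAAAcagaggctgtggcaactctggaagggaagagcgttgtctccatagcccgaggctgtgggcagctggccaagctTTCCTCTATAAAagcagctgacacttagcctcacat
S100a9, chr3:90695722-90695971, minus strand: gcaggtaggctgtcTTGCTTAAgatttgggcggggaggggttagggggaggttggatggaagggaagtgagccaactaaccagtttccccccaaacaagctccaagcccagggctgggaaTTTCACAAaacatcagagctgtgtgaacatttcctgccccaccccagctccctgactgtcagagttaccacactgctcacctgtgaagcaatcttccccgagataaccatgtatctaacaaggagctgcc
Ngp, chr9:110419558-110419807, plus strand: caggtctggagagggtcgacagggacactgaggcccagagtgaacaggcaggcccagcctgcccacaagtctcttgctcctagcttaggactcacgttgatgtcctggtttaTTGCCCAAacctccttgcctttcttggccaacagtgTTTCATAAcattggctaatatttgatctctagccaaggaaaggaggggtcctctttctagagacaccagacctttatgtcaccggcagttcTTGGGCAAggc
Camp, chr9:109849457-109849706, minus strand: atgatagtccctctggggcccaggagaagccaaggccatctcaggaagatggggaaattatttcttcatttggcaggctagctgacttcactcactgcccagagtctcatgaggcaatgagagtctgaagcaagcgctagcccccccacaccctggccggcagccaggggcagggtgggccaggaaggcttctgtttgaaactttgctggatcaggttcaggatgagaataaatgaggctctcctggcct
C/EBP factors and PU.1 are transcription factors of the myeloid lineage. The S100a8 window held 1 C/EBP match, 2 PU.1 matches and a TATA box from base -30 to base -25, and the S100a9 window 2 C/EBP matches. Ngp had 3 C/EBP matches and Camp had no match to any of the motifs. No matches overlapped one another. Of 32851 promoter windows of this length, 36.8% held the C/EBP motif, 23.3% the PU.1 motif and 12.4% the TATA box. The NF-kappaB motif was present in 7.25% of all windows and in 0 of the 9 members with a window. These matches are letters in a window and not binding sites.

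The deposited values are MAS5 signals on a linear scale, with every array scaled to a target intensity of 100. A floor of 10 was put under the signals before taking log2, and limma gave the comparisons. Only probe sets in the top 40% of an array, on at least 3 arrays, were tested. They numbered 6931 in lung, 5693 in liver and 7640 in both organs, and a call is an adjusted p (Benjamini-Hochberg) under 0.05 over all of these. Of the members, 9 probe sets of 8 genes were tested in lung and 10 probe sets of 9 genes in liver and in both organs, the added one being the Mpo probe set 100414_s_at, which passed through its liver signal. Il1b, the Il4ra probe set 161192_at and the Mpo probe set 100415_at were too dim to be tested. The number of arrays limits the precision.

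Arrays of the lungs of 10% oxygen, and less so those of livers, differed from room air lung arrays in technical measures. The ratio of the 3′ to the 5′ Gapdh signal was 1.21 to 9.4 in lungs of 10% oxygen, 1.3 to 1.86 in livers and 0.734 to 1.15 in room air lungs. Because the lungs of the 2 oxygen levels do not overlap in this ratio, a model with it as a covariate cannot separate it from the oxygen level. Replicate arrays correlated less well, with a Pearson's r over probe sets of 0.749 to 0.825 in lungs of 10% oxygen, 0.867 to 0.895 in livers and 0.896 to 0.95 in room air lungs. The second F21 lung array of 10% oxygen stood apart, with a summed signal of 5 hepatocyte markers of 2816, against 66 to 479.3 on the other 23 lung arrays and 83010 to 109900 in livers. Albumin (Alb) alone reached 2160 on it, against 7.4 to 259 on the others. Calls that involve the F21 lungs of 10% oxygen are also given without it. The BioB spike control had a signal of 220.9 to 542 in F21 lungs of room air and 149.9 to 186.6, 277 to 493.7, 101.9 to 122.7 and 157.9 to 197.5 in those at 2, 6, 12 and 24 h, and its part in the changes with time was not tested.

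The calprotectin genes rose in the lung within 2 h of birth in room air, were highest at 6 h and were still above F21 at 12 h. S100a8 had signals of 139.5, 173.8 and 120.8 at F21, 350, 539.7 and 475.3 at 2 h, 1400.9, 1509.3 and 765.3 at 6 h, 478.1, 499.7 and 596.8 at 12 h, and 397.9, 280 and 430.9 at 24 h. Every array after birth lay above every F21 array, and the 6 h arrays lay above all others. S100a9 had signals of 78.4, 50.7 and 61.5 at F21, 193.1, 219.4 and 219.7 at 2 h, 565, 525.9 and 377.3 at 6 h, 253, 177.5 and 250.2 at 12 h, and 151.5, 168.2 and 159.5 at 24 h. Its order of groups was that of S100a8, with no overlap between F21 and any later group.

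**Figure D1:**
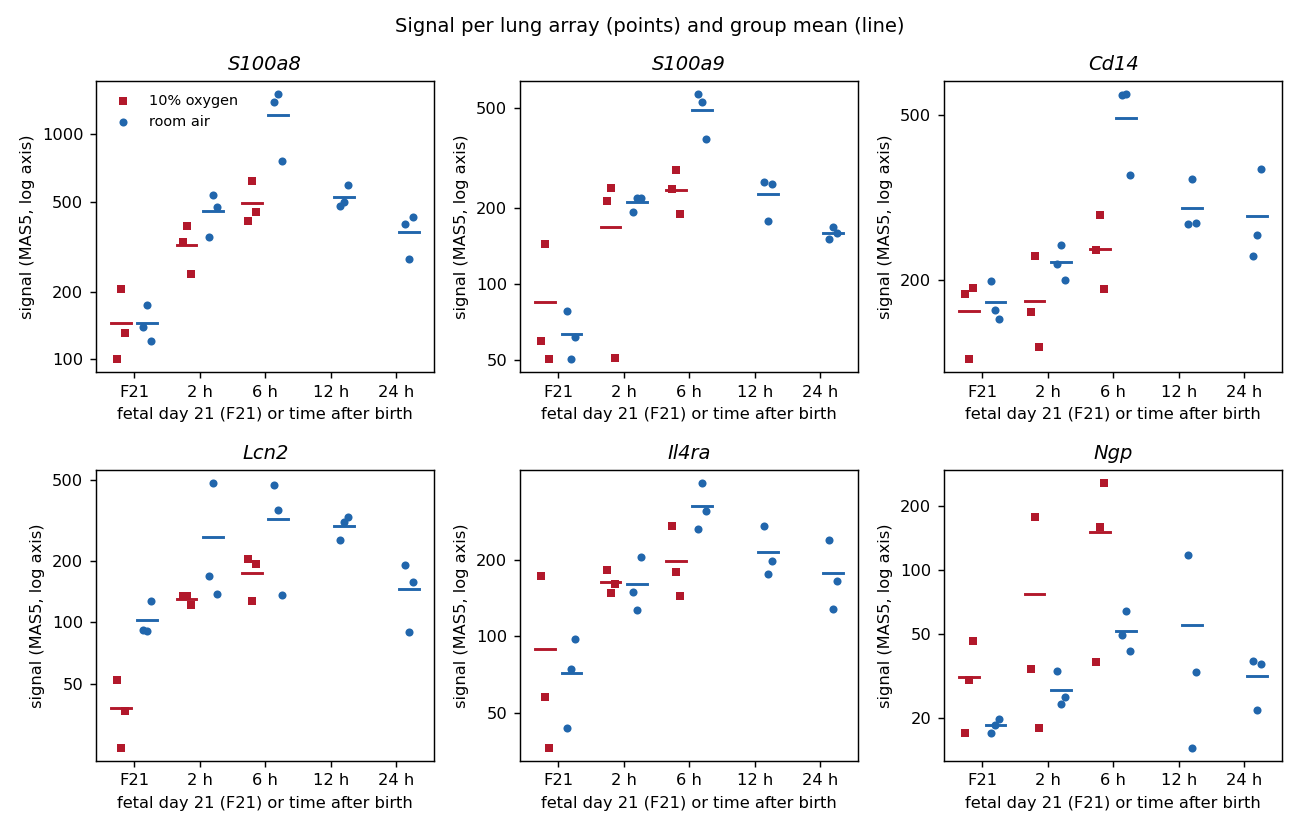
MAS5 signal (log axis) of S100a8, S100a9, Cd14, Lcn2 (160564_at), Il4ra (102021_at) and Ngp on each lung array, at F21 and by time after birth, with squares for 10% oxygen, circles for room air and lines for group means of 3 arrays. At 6 h, S100a8 averaged 494.2 in 10% oxygen and 1225 in room air, and the room air arrays at 6 h are its highest.

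Against F21, S100a8 rose 3.13-fold at 2 h (log2 1.65 ± 0.28, standard error, adjusted p = 0.00206 in limma), 8.21-fold at 6 h (log2 3.04 ± 0.28, adjusted p = 8.75e-07), 3.65-fold at 12 h (log2 1.87, adjusted p = 0.00133) and 2.54-fold at 24 h (log2 1.35, adjusted p = 0.0283). It also rose between 2 h and 6 h, by 2.62-fold (log2 1.39, adjusted p = 0.00752). From 6 h to 12 h its log2 change was -1.17 (95% confidence interval -1.76 to -0.58), with no overlap of the arrays, and did not pass over all genes (adjusted p = 0.177), while without the third 6 h array, the lowest of its group, it was -1.48 and passed (adjusted p = 0.0403). The rises at 2, 6 and 12 h were kept without any 1 array. The 24 h call was kept only without the second 24 h array and was lost without any other of the 6 arrays compared (log2 1.22 to 1.49, adjusted p = 0.053 to 0.184). The 6 h against 2 h call was lost without the first 2 h array or the second 6 h array (log2 1.21 in each, adjusted p = 0.0679 and 0.0593).

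S100a9 rose 3.36-fold at 2 h (log2 1.75 ± 0.42, adjusted p = 0.0185 in limma), 7.71-fold at 6 h (log2 2.95 ± 0.42, adjusted p = 6.94e-04) and 3.58-fold at 12 h (log2 1.84, adjusted p = 0.0277). At 24 h it was at log2 1.35 and did not pass (adjusted p = 0.155). With array weights this change passed (adjusted p = 0.0188 in limma), and so it did in the methods' t-test on linear and on log2 signals (unadjusted p = 5.12e-04 and 0.00195). Its 6 h call was kept without any 1 array. The 2 h call was lost without the second or the third F21 array or the first or the third 2 h array (log2 1.6 to 1.81, adjusted p = 0.0568 to 0.0738), and the 12 h call without any array but the first F21 array (log2 1.69 to 2.01, adjusted p = 0.0507 to 0.116). Across the 24 lung arrays the log2 signals of S100a8 and S100a9 had a Pearson's r of 0.923, which is a description over arrays that share the same groups.

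**Figure D2:**
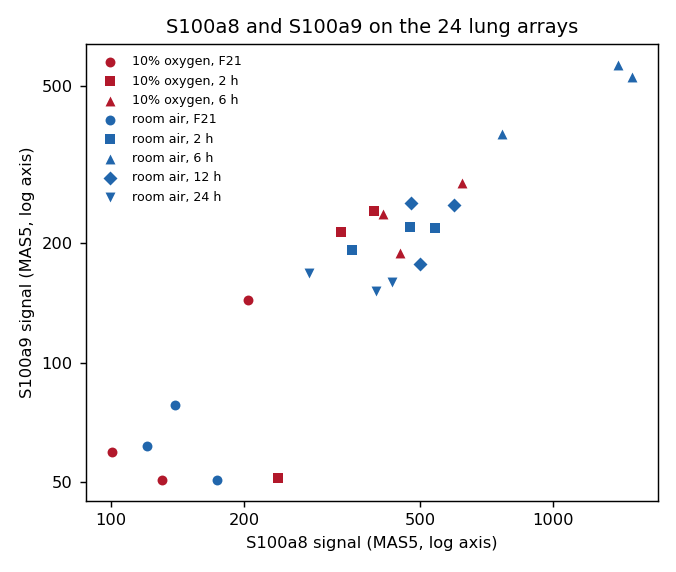
S100a9 signal against S100a8 signal on the 24 lung arrays (both axes logarithmic), with red for 10% oxygen, blue for room air and a marker shape for each time. The 3 arrays at 6 h in room air have the highest signals of both genes, and the third 2 h array of 10% oxygen, with 238.5 for S100a8 and 51.2 for S100a9, has S100a9 at the F21 level.

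Cd14, the lipopolysaccharide co-receptor, was raised at 6 h in room air. Its signals were 198.5, 169.5 and 161.2 at F21, 217.9, 243 and 200.1 at 2 h, 558.2, 559.6 and 357.7 at 6 h, 271.7, 349.1 and 273.5 at 12 h, and 228.6, 256.7 and 369.1 at 24 h. The 2 h arrays stood just above the F21 arrays, and the 6 h arrays above those of F21, 2 h and 12 h. Cd14 rose 2.74-fold from the F21 level at 6 h (log2 1.46 ± 0.25, adjusted p = 0.00442 in limma) and 2.19-fold above 2 h (log2 1.13, adjusted p = 0.0129). The first of these calls was kept without any 1 array. The second was lost without the first or the third 2 h array or the first or second 6 h array (log2 1.02 to 1.13, adjusted p = 0.0606 to 0.0763). Neither 2 h (log2 0.32), 12 h (0.75) nor 24 h (0.67) passed against F21, at adjusted p of 0.558, 0.169 and 0.285. The 12 h change passed the methods' t-test on log2 signals (unadjusted p = 0.00731), and the 24 h change passed with array weights (log2 0.8, adjusted p = 0.033 in limma).

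Il4ra, measured by the probe set 102021_at and highest at 6 h, was also raised in room air. It had signals of 43.4, 74.4 and 97.6 at F21, 149.4, 127.5 and 206.7 at 2 h, 265.9, 404.2 and 314.6 at 6 h, 274.3, 177.1 and 198.4 at 12 h, and 239.5, 128.7 and 165 at 24 h. No array after birth was as low as any F21 array. The gene rose 4.75-fold at 6 h (log2 2.25 ± 0.42, adjusted p = 0.00768 in limma) and 3.13-fold at 12 h (log2 1.65, adjusted p = 0.0459), and was at log2 1.21 at 2 h (adjusted p = 0.101) and 1.34 at 24 h (adjusted p = 0.155), which did not pass. With array weights the 2 h and 24 h changes passed (adjusted p = 0.00412 and 0.0186 in limma). Without the first F21 array, the lowest of the 3, the 6 h change was log2 1.92 at an adjusted p of 0.0612. The 12 h call was lost without any 1 of its 6 arrays (log2 1.32 to 1.91, adjusted p = 0.0603 to 0.236). The other Il4ra probe set, 161192_at, gave 2.7 to 68.4 in lung, was under the floor of 10 on 6 of 24 lung arrays and was not tested. Its r with 102021_at over the 24 lung arrays was -0.52.

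Lcn2 was more variable in room air. The probe set 160564_at gave 91.6, 90.3 and 126.8 at F21, 168.2, 483.3 and 138 at 2 h, 474.1, 354.4 and 136.2 at 6 h, 253.3, 311.5 and 327.7 at 12 h, and 190.7, 90 and 158.7 at 24 h. The groups at 2, 6 and 12 h did not overlap with F21, but 1 array at 2 h and 1 at 6 h lay close to it. The log2 changes were 1.14, 1.48, 1.54 and 0.46 at 2, 6, 12 and 24 h, and none passed (adjusted p in limma of 0.15, 0.1, 0.0843 and 0.792). Without the third 6 h array the 6 h change was log2 2.01 and passed (adjusted p = 0.0256). With array weights the 2, 6 and 12 h changes passed (adjusted p = 0.0438, 0.0106 and 0.0136 in limma). The 12 h change also passed in a limma fit of the compared groups only (adjusted p = 0.00953). It passed the methods' t-test as well, on linear and on log2 signals (unadjusted p = 0.0016 and 0.00142). The second Lcn2 probe set, 161684_r_at, gave 41.5 to 121 in these lungs with log2 changes of 0.29, -0.28, -0.41 and -0.12, and its r with 160564_at over 24 lung arrays was 0.161.

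The later granule genes Ngp, Camp and Ltf did not pass in limma in the room air lung at any time. Ngp had signals of 17, 18.6 and 19.7 at F21, 33.3, 23.2 and 25.2 at 2 h, 49.1, 63.9 and 41.5 at 6 h, 117.7, 14.5 and 32.9 at 12 h, and 37.1, 21.9 and 35.9 at 24 h. The 2, 6 and 24 h arrays lay above F21, and 1 of the 12 h arrays lay below it. Its log2 change at 6 h was 1.46, with a 95% confidence interval of -0.15 to 3.07 (adjusted p = 0.483 in limma). This change passed the methods' t-test on linear and on log2 signals (unadjusted p = 0.00753 and 0.00158). Camp was at log2 0.66 at 2 h (adjusted p = 0.266), with 203.8, 177.5 and 193 against 156.3, 140.2 and 81.3 at F21, and at 0.61 at 6 h. Ltf had 15.4 to 92.5 after birth, against 44.4 to 86.4 at F21, with groups that overlapped at every time.

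Il1b was under the floor of 10 on 20 of all 33 arrays. Its highest signal in lung, 51.3, was that of the second 6 h array of room air, beside 12 and 8.7 on the other arrays of that group. The Mpo probe set 100414_s_at gave 3.2 to 53.8 in lung, was under the floor on 6 of the 24 arrays and, in room air at 2 h, on all of the 3. The other Mpo probe set, 100415_at, gave 8.2 to 76.1.

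In room air, 2 of the 9 member probe sets tested in lung were higher at 2 h, 4 at 6 h, 3 at 12 h and 1 at 24 h, and no member was lower. Of all probe sets, 1.47% were higher at 2 h, 0.822% at 6 h, 0.880% at 12 h and 0.433% at 24 h. The median log2 change of the members was 0.66, 1.46, 1.06 and 0.67 at these times, against 0.02, -0.04, -0.02 and -0.04 over all probe sets tested. All of these comparisons share the F21 arrays. Between 2 h and 6 h 2 members rose, against 2.28% of all probe sets. No member passed between 6 h and 12 h or between 12 h and 24 h (3 and 1 had an unadjusted p under 0.05), where 0.0721% and 0% of all probe sets passed in either direction.

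**Figure D3:**
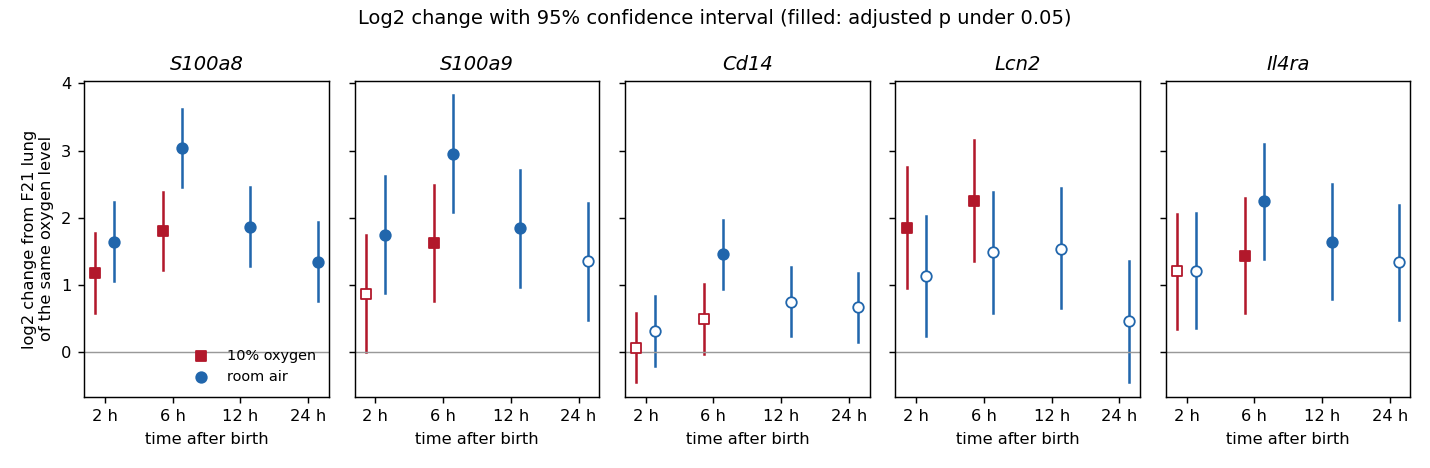
Log2 change from the F21 lungs of the same oxygen level (points, with 95% confidence intervals) for S100a8, S100a9, Cd14, Lcn2 (160564_at) and Il4ra (102021_at) by time after birth, with squares for 10% oxygen, circles for room air and filled marks for an adjusted p under 0.05. S100a8 is filled at every time in both, and Lcn2 is filled in 10% oxygen only, at 1.85 and 2.25.

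After birth into 10% oxygen the S100 pair and Il4ra were raised by 6 h, and Lcn2 by 2 h. S100a8 had signals of 100.4, 204.7 and 130.6 at F21, 331.8, 393.3 and 238.5 at 2 h, and 411.3, 620.3 and 450.9 at 6 h. The 3 groups did not overlap, and the highest F21 value was that of the array with the hepatocyte signal. Against the F21 lungs of 10% oxygen, S100a8 rose 2.26-fold at 2 h (log2 1.18 ± 0.28, adjusted p = 0.0241 in limma) and 3.5-fold at 6 h (log2 1.81 ± 0.28, adjusted p = 4.85e-04). Without the array with the hepatocyte signal the changes were log2 1.46 and 2.09 (adjusted p = 0.0101 and 2.33e-04). The 6 h call was kept without any 1 array, and the 2 h call was lost without the first or the third F21 array or the first or second 2 h array (log2 0.94 to 1.14, adjusted p = 0.067 to 0.0963).

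S100a9 had signals of 59.4, 144.2 and 50.6 at F21, 214.4, 241.1 and 51.2 at 2 h, and 237.2, 284 and 189 at 6 h. The third 2 h array lay at the F21 level and the second F21 array, again that with the hepatocyte signal, was the highest of its group. The gene rose 3.09-fold at 6 h (log2 1.63 ± 0.42, adjusted p = 0.0207 in limma, and 2.09 with 0.0056 without the array with the hepatocyte signal), and at 2 h was at log2 0.87 (adjusted p = 0.291). The 6 h call was lost without the first or the third F21 array or the first or second 6 h array (log2 1.34 to 1.61, adjusted p = 0.0561 to 0.108). Without the third 2 h array the 2 h change was log2 1.59 and passed (adjusted p = 0.0177).

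Lcn2 (160564_at) gave 52.2, 24.3 and 36.9 at F21, 134.8, 134.4 and 121.9 at 2 h, and 204.7, 127 and 194.3 at 6 h. Every array after birth lay above every F21 array. It rose 3.61-fold at 2 h (log2 1.85 ± 0.43, adjusted p = 0.0206 in limma) and 4.76-fold at 6 h (log2 2.25 ± 0.43, adjusted p = 0.00283), where the call was kept without any 1 array. The 2 h call was lost without the array with the hepatocyte signal (log2 1.57, adjusted p = 0.0863) and without the third F21 array or any 1 of the 2 h arrays (log2 1.83 to 1.9, adjusted p = 0.0517 to 0.0615). Set against F21 lungs of room air instead, Lcn2 was at log2 0.36 at 2 h and 0.76 at 6 h, and neither passed (adjusted p = 0.693 and 0.289). The second Lcn2 probe set, at log2 -0.11 and 0.93, did not pass.

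Il4ra (102021_at) gave 172.6, 57.6 and 36.4 at F21, 182.9, 149 and 161.6 at 2 h, and 272.6, 179.7 and 145.1 at 6 h. The first F21 array lay within the 6 h group, so that these groups overlapped. The gene rose 2.7-fold at 6 h (log2 1.43 ± 0.42, adjusted p = 0.038 in limma), a call lost without the array with the hepatocyte signal (log2 1.28, adjusted p = 0.118), the third F21 array or the first or second 6 h array (log2 0.95 to 1.48, adjusted p = 0.0703 to 0.215). At 2 h it was at log2 1.2 (adjusted p = 0.125). Without the first F21 array the 2 h change was log2 1.84 and passed (adjusted p = 0.00613).

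Cd14 did not pass in 10% oxygen at 2 h (log2 0.07) or at 6 h (log2 0.5, adjusted p = 0.253). Its signals were 184.4, 128.9 and 191.3 at F21, 167.3, 227.6 and 137.8 at 2 h, and 235.8, 286.6 and 190.2 at 6 h. The 6 h group overlapped with F21 by 1 array. Ngp reached 36.7, 159.1 and 256.6 at 6 h, against 16.9, 30.2 and 46.3 at F21, and was at log2 2 with a 95% confidence interval of 0.39 to 3.6 (adjusted p = 0.133). Without the first 6 h array, the lowest of its group, its change was log2 2.82 and passed (adjusted p = 0.0449). Ngp was bright enough for testing on few lung arrays, which included the 6 h arrays with 159.1 and 256.6. Without these arrays Ngp would not have been tested in lung. The filter thus leaned toward a rise of Ngp at 6 h, and neither p is evidence independent of it. Camp (log2 0.5 at 6 h) and Ltf (log2 0.62) did not pass.

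Of the 9 member probe sets, 2 were higher at 2 h and 4 at 6 h in 10% oxygen, beside 1.37% and 2.99% of all probe sets. Without the array with the hepatocyte signal these counts were 1 and 3. The median of the members was log2 0.73 at 2 h and 1.43 at 6 h, against -0.02 and -0.02 over all probe sets.

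Set side by side at the same time, the lungs of 10% oxygen had less S100a8 and Cd14 than those of room air at 6 h. S100a8 gave 411.3, 620.3 and 450.9 in 10% oxygen, against 1400.9, 1509.3 and 765.3 in room air, and fell 2.41-fold (log2 -1.27 ± 0.28, adjusted p = 0.0119 in limma). Cd14 gave 235.8, 286.6 and 190.2 in 10% oxygen, against 558.2, 559.6 and 357.7 in room air, and fell 2.06-fold (log2 -1.04 ± 0.25, adjusted p = 0.0171). Neither gene overlapped between the groups. With the Gapdh ratio in the model the changes were log2 -1.76 and -1.15 and passed (adjusted p = 0.00395 and 0.0377 in limma). That ratio did not overlap between the oxygen levels, so this model cannot separate it from oxygen. The S100a8 call was lost without the first or second 6 h array of room air (log2 -1.14 and -1.09, adjusted p = 0.063 and 0.0662), and the Cd14 call without either of these (log2 -0.93 in each) or the third 6 h array of 10% oxygen (log2 -0.89, adjusted p = 0.0649). Both calls were also lost in a limma fit of the 6 arrays compared alone, at the same log2 changes (adjusted p = 0.0568 for S100a8 and 0.0715 for Cd14), and neither gene passed the methods' t-test at its threshold of 0.01. S100a9 was at log2 -1.05 without overlap of the groups and did not pass (adjusted p = 0.14), and Il4ra was at -0.75 (adjusted p = 0.299).

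Before birth, Lcn2 was the only member to pass between the oxygen levels. Its signals at F21 were 52.2, 24.3 and 36.9 in 10% oxygen, against 91.6, 90.3 and 126.8 in room air, without overlap, and it fell 2.82-fold (log2 -1.5 ± 0.43, adjusted p = 0.0347 in limma). The call was lost without the array with the hepatocyte signal (log2 -1.21, adjusted p = 0.144), without the third F21 array of 10% oxygen or any 1 of the F21 arrays of room air (log2 -1.34 to -1.58, adjusted p = 0.074 to 0.111), and with the Gapdh ratio as a covariate (log2 -1.13, adjusted p = 0.327). S100a8 averaged 145.2 ± 53.7 in 10% oxygen and 144.7 ± 26.9 in room air (SD, n = 3 each), a log2 difference of -0.04 with a 95% confidence interval of -0.63 to 0.54, or -0.32 (-0.94 to 0.29) without the array with the hepatocyte signal.

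At 2 h, 0 of 9 member probe sets passed between oxygen levels in limma, with 0 at an unadjusted p under 0.05, where 16.8% of all probe sets passed in either direction. S100a8 was then at log2 -0.51 (adjusted p = 0.231), and at -1.02 with the Gapdh ratio as a covariate, which passed (adjusted p = 0.0389). At F21 and at 6 h, 1 and 2 members were lower in 10% oxygen, beside 4.62% and 3.55% of all probe sets. Whether the birth response itself differed with oxygen was tested as an interaction, in which 0 members passed at 2 h or 6 h in limma (0 and 3 at an unadjusted p under 0.05), beside 0.476% and 0.0144% of all probe sets in either direction. The 6 h response of S100a8 differed by log2 -1.23 (95% confidence interval -2.06 to -0.4, adjusted p = 0.345), that of S100a9 by -1.32 (-2.55 to -0.09) and that of Cd14 by -0.96 (-1.69 to -0.22). Lcn2 had the other sign, at 0.77 (-0.5 to 2.03). Without the array with the hepatocyte signal the 6 h differences were -0.95 (-1.77 to -0.13, adjusted p = 0.471) for S100a8, -0.86 (-2.05 to 0.33) for S100a9, -1.14 (-1.89 to -0.38) for Cd14 and 0.48 (-0.83 to 1.8) for Lcn2, with 0 members called at either time (0 at 2 h and 2 at 6 h at an unadjusted p under 0.05).

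Signals of some other cell markers also differed between these groups. Further neutrophil markers overlapped between F21 and 6 h in room air. The summed signal of 3 further neutrophil markers (Csf3r, Elane and Ly6g) was 284.9 to 850.5 in 6 h lungs of room air and 384 to 731.4 at F21, and Ly6g was 2.1 to 76.6 in these lungs. Neither of the 2 that were tested, Csf3r and Elane, passed at any time in room air. The sum of 10 macrophage markers was 563.9 to 764.9 at F21, 1226 to 1480 at 2 h and 1202 to 1722 at 6 h in 10% oxygen. In room air it was 1212 to 2077 at F21, 2391 to 4312 at 2 h and 2591 to 4075 at 6 h. Lyz2, a lysozyme gene, had the highest mean of these markers in each of these groups. In 10% oxygen Lyz2 averaged 139.4 at F21, 668.1 at 2 h and 665.5 at 6 h. The complement gene C1qb (61.73, 43.23 and 29.13) and the receptor Csf1r (106.9, 86.13 and 94.5) had lower means after birth there. The other markers of the sum had higher ones. Lyz2 rose in 10% oxygen at 2 h (log2 2.29, adjusted p = 0.00317 in limma) and 6 h (2.3, adjusted p = 0.00146), was at 1.36 (adjusted p = 0.0621) and 1.14 (adjusted p = 0.231) in room air, and was lower in 10% oxygen than in room air at 6 h (log2 -1.67, adjusted p = 0.0193). The defining macrophage receptor Marco was 4.1 to 75 in lung. Of these macrophage markers 7 were tested in lung, and in 10% oxygen the protease Ctss rose at 6 h (log2 1.14, adjusted p = 0.0314) and was lower than in room air at F21 and 6 h, as were Cd68 at F21 and the complement gene C1qb at 6 h. Without the array with the hepatocyte signal, Lyz2 rose by log2 2.63 at 2 h and 2.63 at 6 h (adjusted p = 0.00256 and 0.00101), Cd68 also rose, by 2.21 and 2.39 (adjusted p = 0.0026 and 6.62e-04), and the 6 h change of Ctss (1.19, adjusted p = 0.0582) and its F21 difference from room air (-1.12, adjusted p = 0.0704) did not pass.

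The summed signals of lung epithelium and red cell markers moved as well, led by the surfactant gene Sftpc and the hemoglobin gene Hba-a1. The summed signal of 4 epithelial markers was 21960 to 40330 at F21, 42510 to 48940 at 2 h and 49280 to 53670 at 6 h in 10% oxygen. In room air it ranged from 47860 to 62080 before birth, from 27220 to 31970 at 2 h, from 65470 to 73980 at 6 h, from 48110 to 51940 at 12 h and from 53520 to 59840 at 24 h. Most of this sum was Sftpc, with means of 47450 at F21, 18770 at 2 h and 55430 at 6 h. The other markers did not share the drop at 2 h. Sftpb averaged 4318 against 4577 at F21, Scgb1a1 5756 against 2091 and Sftpd 57.13 against 36.93. Scgb1a1, the club cell secretory protein, rose in room air at 6 h (log2 2.15, adjusted p = 0.0378 in limma) and 12 h (2.17, adjusted p = 0.0348) and in 10% oxygen at 2 h (2.58, adjusted p = 0.00785) and 6 h (3.47, adjusted p = 3.02e-04), and was lower in 10% oxygen than in room air at F21 (-2.15, adjusted p = 0.0126). Without the array with the hepatocyte signal these 10% oxygen changes were 3.33, 4.22 and -2.9 and still passed. In room air Sftpc and Hba-a1 were lower at 2 h than at F21 (log2 -1.33 and -1.06, adjusted p = 0.00428 and 0.0356 in limma) and higher at 6 h than at 2 h (1.56 and 1.07, adjusted p = 0.00104 and 0.0385). The sum of 6 red cell markers ranged in 10% oxygen from 22890 to 33880 before birth, from 37800 to 58780 at 2 h and from 30980 to 54230 at 6 h. In room air it ranged from 31630 to 37090 before birth and, at 2, 6, 12 and 24 h, from 14990 to 19510, 30980 to 37570, 14780 to 27270 and 27150 to 30780. Most of this sum was Hba-a1, with means of 33600 at F21 and 16240 at 2 h. Alas2, Hbb-bh1 and Epb42 also had lower means at 2 h than at F21 in room air. Slc4a1 (97.03 against 67.83) and Rhag (53.53 against 45.1) had higher means. At 2 h both Hba-a1 (log2 1.43, adjusted p = 0.00175) and Sftpc (0.99, adjusted p = 0.0104) were higher in 10% oxygen than in room air. The part of macrophages, epithelium and red cells in the member results was not tested.

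In liver, 1 member passed at 2 h and 1 at 6 h, both lower than at F21. S100a8 had signals of 8448.4, 8217.6 and 7773.2 at F21, 5830.8, 6066.8 and 5670.2 at 2 h, and 7185.7, 6863.8 and 7290.7 at 6 h. The F21 livers lay above those of both later groups. S100a8 fell 1.39-fold at 2 h (log2 -0.48 ± 0.1, adjusted p = 0.0407 in limma), a call lost without any 1 of its arrays except the first 2 h liver (log2 -0.45 to -0.51, adjusted p = 0.0889 to 0.176), and was at -0.2 at 6 h (adjusted p = 0.41). S100a9 had 3401.3, 3180.6 and 3592.8 at F21, 2946.6, 2516 and 2402.2 at 2 h, and 2585.3, 2071.2 and 2609.2 at 6 h, with log2 changes of -0.38 and -0.49 that did not pass (adjusted p = 0.251 and 0.0886) though no groups overlapped with F21.

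Among the granule genes of liver only Ltf passed, at 6 h. It had signals of 860.8, 910.9 and 843.3 at F21, 907.3, 752.9 and 619.5 at 2 h, and 554.2, 551.3 and 561.5 at 6 h. The 6 h livers lay close together and below all others. Ltf fell 1.57-fold at 6 h (log2 -0.65 ± 0.15, adjusted p = 0.0495 in limma), a call lost without any 1 of the 6 arrays (log2 -0.62 to -0.67, adjusted p = 0.112 to 0.171). Ngp (3043.5 to 3633.8 at 6 h, 3241.6 to 3926.5 at F21), Camp (3086 to 3471.7 at 6 h, 3150.9 to 3679.6 at F21) and Mpo (561.9 to 577.4 at 6 h, 469.4 to 665.1 at F21) overlapped between 6 h and F21.

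Cd14 of liver had signals of 78.7, 70 and 107.7 at F21, 267.2, 133.2 and 162.1 at 2 h, and 293.1, 105.8 and 276.7 at 6 h. All 2 h livers lay above F21, and the second 6 h liver lay within the F21 range. Its log2 changes of 1.09 at 2 h and 1.29 at 6 h did not pass (adjusted p = 0.251 and 0.125 in limma), and without the second 6 h liver the 6 h change was 1.76 and passed (adjusted p = 0.0159). Of the 10 member probe sets tested in liver, 1 was lower at 2 h and 1 at 6 h, beside 0.263% and 0.949% of all probe sets, and 0 passed between 2 h and 6 h in limma (2 at an unadjusted p under 0.05), beside 0.0176% of all probe sets in either direction.

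**Figure D4:**
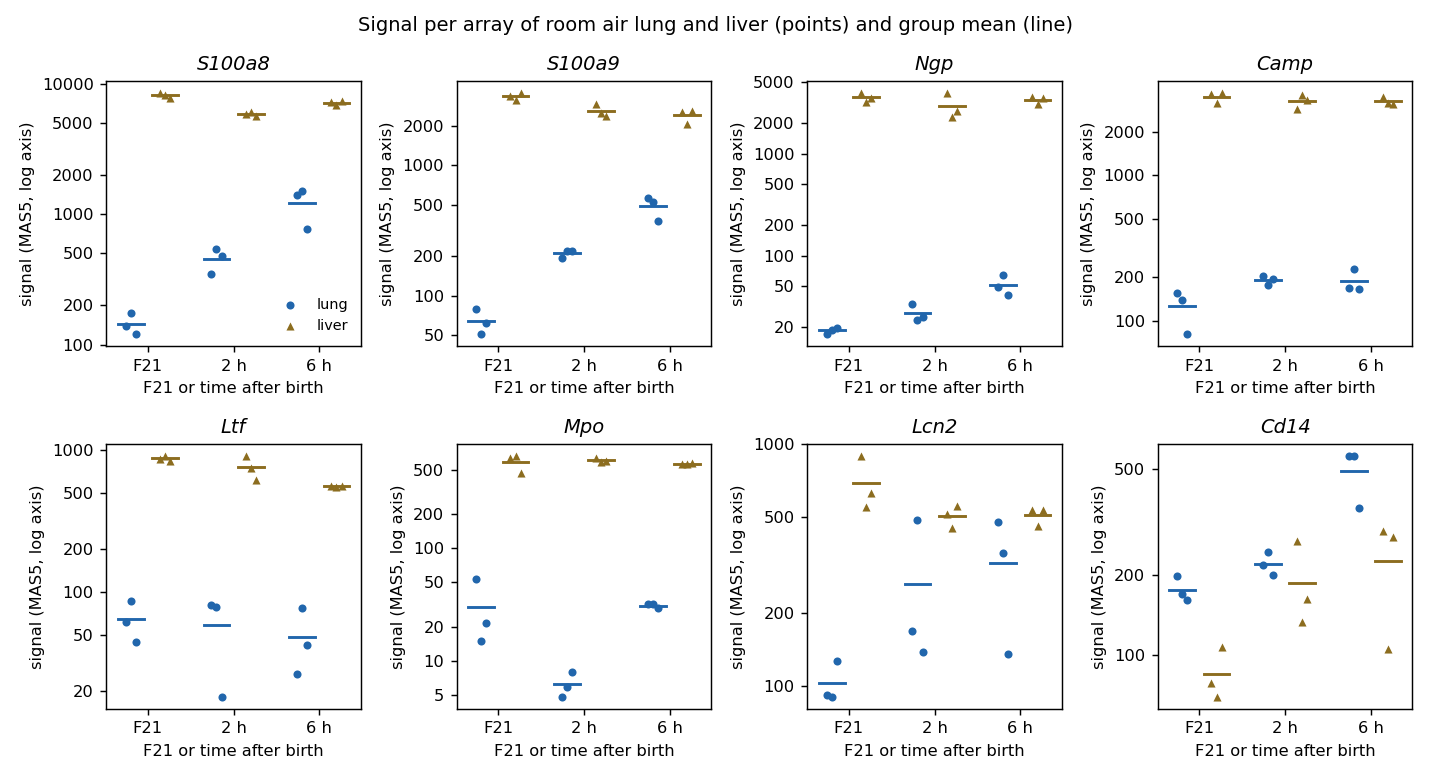
MAS5 signal (log axis) of 8 members on each array of room air lung (circles) and liver (triangles) at F21, 2 h and 6 h, with lines for the means of 3 arrays. S100a8 averaged 144.7 in lung and 8146 in liver at F21, and Cd14, at 176.4 in lung and 85.47 in liver, is the member with the higher lung signal at that time.

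Before birth, the granule and calprotectin genes were far lower in lung than in liver. Ngp gave 17, 18.6 and 19.7 in F21 lungs, against 3926.5, 3241.6 and 3521.1 in F21 livers. Camp gave 156.3, 140.2 and 81.3 in F21 lungs, against 3619.1, 3150.9 and 3679.6 in F21 livers. Mpo (100414_s_at) gave 53.8, 15.1 and 21.7 in F21 lungs, against 630.4, 665.1 and 469.4 in F21 livers. The lung and liver arrays did not overlap for any of these genes.

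The lung signal was lower 56.9-fold for S100a8 (log2 -5.83 ± 0.24), 54.2-fold for S100a9 (-5.76 ± 0.36), 28.7-fold for Camp (-4.84 ± 0.26) and 14.1-fold for Ltf (-3.82 ± 0.55), all at adjusted p of 2.10e-06 or less in limma. Ngp was lower as well, at log2 -7.59 ± 0.64, but its lung signals lay close to the floor of 10 and the detection calls were not used here, so that the size of its difference is uncertain. The primary granule gene Mpo entered the fit through its liver signal only, and its signals are a description without a fold or p. Lcn2 (160564_at) gave 91.6, 90.3 and 126.8 in F21 lungs, against 893.9, 550.2 and 626.2 in F21 livers, and was lower 6.65-fold (log2 -2.73, adjusted p = 1.39e-06). Its other probe set, at log2 -0.44, did not pass. Cd14 went the other way, with 198.5, 169.5 and 161.2 in F21 lungs, against 78.7, 70 and 107.7 in F21 livers, and was higher 2.09-fold in lung (log2 1.06 ± 0.31, adjusted p = 0.0103), or log2 0.93 with an adjusted p of 0.0539 without the second F21 liver. Il4ra was at log2 -0.97 (adjusted p = 0.0707), and without the third F21 lung array of room air at -1.23, which passed (adjusted p = 0.0411). Of the 10 member probe sets 7 were lower, or 6 without Mpo, and 1 was higher in lung, beside 11.9% and 16% of all probe sets, so that many genes differ between these organs.

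The lung responses of S100a8 and S100a9 to birth differed from those of the liver. At 2 h, S100a8 changed by log2 1.65 in lung and -0.48 in liver, and the difference of 2.12 passed (standard error 0.35, adjusted p = 0.00158 in limma). At 6 h it changed by 3.04 in lung and -0.2 in liver, a difference of 3.23 (adjusted p = 1.47e-06). The differences of S100a9 were log2 2.13 at 2 h (adjusted p = 0.0343) and 3.44 at 6 h (adjusted p = 7.15e-04). The 2 h difference of S100a9 was lost without any 1 of 10 of the 12 arrays, namely all but the first F21 lung and the first 2 h liver (log2 1.97 to 2.19, adjusted p = 0.059 to 0.0872), and the other 3 were kept without any 1 array. These were the 2 member probe sets called at each time, beside 0.236% of all probe sets that were higher at 2 h and 0.144% at 6 h. Il4ra (log2 2.11) and Lcn2 (1.9) differed at 6 h without passing (adjusted p = 0.128 and 0.166), and without the third 6 h lung array Lcn2 differed by 2.43 and passed (adjusted p = 0.0331). Cd14, at 0.17 with a 95% confidence interval of -0.74 to 1.08, had positive log2 changes in both organs.

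Wider lists of related genes were counted in the same way. Of 37 further neutrophil genes (receptors, proteases, oxidase subunits and regulators), 26 were on the array and 11 were tested in lung, and 0 passed at any time in room air in limma. Their median log2 change at 6 h was 0.25, beside -0.04 over all probe sets. In 10% oxygen Lyz2 passed at 2 h, and at 6 h Lyz2 and the decoy receptor of interleukin-1, Il1r2, which averaged 88.07 at 6 h and 19.13 at F21 (log2 2.19, adjusted p = 0.00304), or 1 and 2 of 11 genes, and both were kept without the array with the hepatocyte signal (Il1r2 at log2 2.24, adjusted p = 0.00759). Lyz2 was lower in 10% oxygen than in room air at F21 already (log2 -2.83, adjusted p = 2.05e-04, or -3.16 and 2.47e-04 without the array with the hepatocyte signal), and at 2 h (log2 -1.90), when the oxidase subunit Ncf1 (log2 2.91, adjusted p = 0.0206) and the leukotriene receptor Ltb4r1 (log2 1.66, adjusted p = 0.0454) were higher, which made 3 of 11 genes beside 16.8% of all probe sets. At 6 h, Lyz2, the oxidase subunit Cyba (log2 -0.83, adjusted p = 0.0288) and the elastase Elane (log2 -1.73, adjusted p = 0.0361) were lower in 10% oxygen than in room air, 3 of 11 genes beside 3.55% of all probe sets. Between F21 lung and F21 liver, 10 of 19 tested were lower in lung and 2 higher (Lyz2 and Hdc, which makes histamine), beside 11.9% and 16% of all probe sets. The lung fit tested only 11 of these genes, so that some entered here through their liver signal. The count therefore leans toward genes lower in lung. Elane, which was also tested in lung, was lower there (log2 -2.31). The protease Prtn3 averaged 22.6 in lung and 370.6 in liver. The oxidase subunit Ncf4 averaged 7.367 and 137, and the lectin Chil3 45.7 and 448.4. These means are a description without a fold.

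Of 37 genes of the NF-kappaB and acute phase response, 31 were on the array and 16 were tested in lung. The adhesion molecule Icam1 rose at 12 h in room air, with a mean of 246.6 at 12 h, against 89.73 at F21 (log2 1.43, adjusted p = 0.0459 in limma), and was the only one of the list to pass in room air. In 10% oxygen at 6 h the acute phase gene Saa3 averaged 218.2, against 19.43 at F21 (log2 3.72, adjusted p = 0.00138), and the adhesion molecule Vcam1 fell (log2 -1.63, adjusted p = 0.0244). These were 1 higher and 1 lower of 16 genes, beside 207 higher and 230 lower of 6931 probe sets. Without the array with the hepatocyte signal Saa3 was at log2 3.38 (adjusted p = 0.00809), and Vcam1, at -1.69, did not pass (adjusted p = 0.0527). Saa3 was also lower at F21 in 10% oxygen, at 19.43, than in room air, at 122.7 (log2 -2.8, adjusted p = 0.0113, or -2.46 and just under 0.05 without that array). At 2 h the inhibitor Nfkbia (log2 1.56, adjusted p = 0.00404) and the transcription factor Irf1 (log2 1.61, adjusted p = 0.0281) were higher in 10% oxygen than in room air, and the lipopolysaccharide binding protein Lbp was lower (log2 -0.66, adjusted p = 0.0331), 3 of 16 genes beside the same 16.8%. Of 17 chemokines and colony-stimulating factors 6 were tested in lung, and 0 passed with time in limma, and Ccl9 was lower in 10% oxygen than in room air at 6 h (log2 -2.56, adjusted p = 0.0443). That was 1 of 6 genes, beside 3.55% of all probe sets. Of 14 genes of interleukin-4 signaling and its targets 7 were tested in lung, and 0 passed in any lung comparison in limma. Between F21 lung and F21 liver, 2 of 16 NF-kappaB list genes were lower in lung and 1 higher, beside 11.9% and 16% of all probe sets. Lbp was lower (log2 -2.39) and Icam1 higher (1.85), and the interleukin-1 receptor Il1r1 averaged 37.83 in lung and 85.2 in liver. In the other lists, 2 of 7 chemokine genes were lower, and 1 of 9 interleukin-4 genes was lower and 1 higher. Ccl9 was lower in lung (log2 -4.60), and Socs3, an inhibitor of cytokine signaling, was higher (1.89). The arginase Arg1 averaged 16.4 in lung and 1297 in liver. Cxcl1, which attracts neutrophils, averaged 17.93 and 168.8. Both lay near the floor in lung and are given without a fold.

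The probe sets with a course most like S100a8 over the 24 lung arrays, among 6233 of other genes, were those annotated to Wdr92 (Pearson's r of 0.896 on log2 signals), Plpp1 (0.835), H2-K1 (0.818), Smad6 (0.793) and Sat1 (0.79). Apart from H2-K1, highest at 12 h in room air, each had its highest mean at 6 h in room air, and all 5 had their lowest at F21 in 10% oxygen. Among the members, Cd14 (0.806), Lcn2 160564_at (0.76) and Il4ra 102021_at (0.753) had the next highest r with S100a8 after S100a9, and Ngp (0.433), Camp (0.5) and Ltf (-0.097) were less alike. Over all 33 arrays the 5 probe sets most like Ngp were those of Itih1, Slc10a1, Vtn, F2 and Afm, at r of 0.955 to 0.966, genes of the hepatocyte that share with Ngp the step between lung and liver. These values describe arrays of the same 8 or 11 groups and carry no test.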

How the data were processed

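Total RNA of whole lungs and livers was measured on 33 Affymetrix MGU74Av2 arrays, 1 sample an array, in 11 groups taken from the labels. The deposited values are MAS5 signal intensities, which the authors scaled to a target intensity of 100 on each array. The detection calls were not used here. Probe sets were named from the platform annotation of GEO, in which 10855 of 12488 have 1 gene symbol. Signals under 10 were set to 10, log2 transformed and fitted per organ, or for both organs together, with limma 3.58.1 (R 4.3.3; lmFit, eBayes with trend) and no covariate. A probe set entered a fit when in the top 40% of its array on at least 3 arrays of that fit. P-values were adjusted by Benjamini-Hochberg over all probe sets of the fit. The residual degrees of freedom were 16 in lung, 6 in liver and 22 in both. Every probe set of the 10 genes is described. Of other lists, the counts called and up to 4 called genes with the smallest p in a comparison are given, and of likeness the 5 probe sets with the highest Pearson's r. The genes and lists were chosen with earlier results of these data known. Alternatives were another floor, pseudocount, filter and normalization, array weights, a Gapdh covariate, a replicate block, fits of the compared groups only, the methods' t-test and leaving out each array. For list genes, markers and the oxygen interaction, leaving out the array with the hepatocyte signal was chosen after seeing the data.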

Additional observations from a re-analysis of the deposited data

Results flagged for a closer look

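The response of S100a8 to birth differed between lung and liver at both times tested, by the test of the difference itself in limma. The lung minus liver difference in log2 change from F21 was 2.12 at 2 h (adjusted p = 0.00158) and 3.23 at 6 h (adjusted p = 1.47e-06). S100a9 differed likewise, by 2.13 at 2 h (adjusted p = 0.0343) and 3.44 at 6 h (adjusted p = 7.15e-04). The lung signals of both genes were higher after birth than at F21 in 3 of 3 lungs at each time, and their liver signals were lower in 3 of 3 livers. The 2 h difference of S100a9 was lost without any 1 of 10 of the 12 arrays (log2 1.97 to 2.19, adjusted p = 0.059 to 0.0872). What sets the organs apart was not tested.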

How the results depend on the processing

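All 35 member calls, in 14 of 20 comparisons, kept their direction under every alternative run. The counts of member probe sets called that moved by over 1.5 times, or to or from 0, are given here, and smaller moves, such as a single gene gained in room air at 6 h, are left out. With fits of the compared groups only, the count was 0 for room air lung at 24 h, 10% oxygen lung at 2 h, 10% oxygen against room air at F21 and at 6 h, and liver at 2 h, 1 for 10% oxygen lung at 6 h, and 4 for room air 6 h against 2 h. Array weights gave 0 for 10% oxygen at 2 h, 2 for 10% oxygen at 6 h, 1 for room air 12 h against 6 h, and 4 for room air at 2 h, at 24 h and for 6 h against 2 h. With no filter the count was 0 for room air at 24 h, 10% oxygen against room air at F21 and liver at 2 h and 6 h, and 1 for room air at 12 h and for the lung minus liver difference at 2 h. Quantile normalization gave 0 for liver at 2 h and 6 h, and 1 for room air at 12 h and for the lung minus liver difference at 2 h. A pseudocount of 16 gave 0 for 10% oxygen against room air at F21 and for liver at 6 h. The Gapdh covariate gave 0 for the same pair and 1 for 10% oxygen against room air at 2 h. The F21 lungs of room air as baseline gave 1 for 10% oxygen at 2 h. A filter on the top 30% by median signal gave 5 for F21 lung against liver.

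The methods' t-test of linear signals, called at p under 0.01 with no adjustment, gave 0 for 10% oxygen against room air at F21 and 6 h, 1 for room air 6 h against 2 h, 10% oxygen at 2 h and liver 6 h against 2 h, and 2 for room air at 24 h and 10% oxygen at 6 h. After Benjamini-Hochberg it gave 0 in each of the 9 lung comparisons that had a call and in liver at 2 h. On log2 signals it gave 0 for 10% oxygen against room air at F21 and 6 h, 1 for 10% oxygen at 2 h and liver 6 h against 2 h, and 2 for room air at 24 h and 10% oxygen at 6 h. The cause of these changes was not tested.

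Replicate numbers did not pair the samples: deviations of samples with the same number correlated at -0.151 to 0.275, and in no comparison were all 3 over 0.1. The replicate block ended 2 calls, Il4ra in room air at 12 h (log2 1.64, adjusted p = 0.0507 in limma) and Ltf in liver at 6 h (log2 -0.65, adjusted p = 0.0537, which left a count of 0), and changed no other call. Leaving out 1 array gave counts of 1 to 2 for room air at 2 h, 3 to 5 at 6 h, 1 to 2 at 12 h, 0 to 1 at 24 h, 0 to 2 for 6 h against 2 h and 0 to 1 for 12 h against 6 h. For 10% oxygen they were 0 to 2 at 2 h and 2 to 4 at 6 h, and against room air 0 to 1 at F21 and 0 to 2 at 6 h. They were 0 to 1 for liver at 2 h and 6 h, 7 to 9 for lung against liver, and 1 to 2 and 2 to 3 for the lung minus liver differences at 2 h and 6 h. With 3 samples a group, signals near the floor of 10, as for Il1b, limit what can be measured.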
